A study of Homo sapiens with 8 samples.

Results

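MS4A1, SAMSN1, TOX, OTUD1, CREBRF and ZIC2 are 6 genes chosen by their measured responses: they were picked because, after the EZH2 inhibitor GSK126, their brightest probe set was higher in the arrays labelled SUP-B8 and lower in those labelled NALM-6. They are 6 of the 13161 genes tested (of 19775 with a probe set of 1 symbol), and 46 genes were called higher in the former and lower in the latter. All 6 passed the filter on dim probe sets. The array carried 18 probe sets with one of these symbols as their single symbol, and all of them are described here. The values that chose the genes are the responses to GSK126 in each label, so those responses, and the difference between them, are given as a description with no test.

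GSK126 blocks the catalytic activity of EZH2, the methyltransferase of the Polycomb repressive complex PRC2, which marks histone H3 at silenced genes. In B cells EZH2 is highest in dividing precursors and in germinal-centre cells, and loss of its activity is known to release silenced genes. The 6 genes come from different parts of B-cell biology. MS4A1 encodes CD20, a multi-pass membrane protein that appears as B cells mature and is the target of rituximab, and SAMSN1 encodes an adaptor with SH3 and SAM domains that restrains B-cell activation. TOX is a transcription factor with an HMG box, best known from T-cell development and exhaustion, and ZIC2 is a zinc-finger transcription factor of the developing nervous system. OTUD1 is a deubiquitinase of the OTU family, and CREBRF is a nuclear protein that recruits the stress-linked factor CREB3 for breakdown.

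Total RNA from 2 human B-lineage leukaemia or lymphoma lines, SUP-B8 and NALM-6, was hybridised to Affymetrix arrays. Before extraction, cells of each line spent 72 hours in 0.5 uM GSK126 or in its vehicle, DMSO, which gives 4 groups of 2 biological replicates. No group is untreated, and the EZH2 genotype of the lines is not stated in the labels. Values are log2 expression as deposited, and array medians lay between 7.18 and 7.24.

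The line labels go against markers by which NALM-6 is known. NALM-6 is commonly described as a B-cell precursor line with terminal transferase, yet DNTT, the gene of that enzyme, averaged 6.86 ± 0.04 (SD, n = 2) in the DMSO arrays labelled NALM-6, below the array medians, and 13.67 ± 0.13 (SD, n = 2) in those labelled SUP-B8. VPREB1 and IGLL1, the surrogate light chain genes of precursor B cells, lay on the same sides, at 6.02 and 6.52 in the former against 13.35 and 13.31 in the latter. For this reason groups are named by their label only, and if the labels were exchanged, the directions given for the 6 genes would be exchanged with them. Both responses are comparisons within a label, so no result here can be given without the arrays in doubt. The list for this check also held CD9, CDKN2A and PTPRC. Averaged over treatments, limma called 4 of its 6 genes higher in the arrays labelled SUP-B8 and 2 lower, PTPRC among the latter. The 7 B-lineage markers measured were above the array medians in all arrays, with a log2 summed level of 15.13 to 15.28. Summed levels of the other markers were 9.73 to 9.94 (6 T-cell genes), 8.87 to 9.15 (4 NK-cell genes), 8.88 to 9.08 (5 myeloid genes), 8.63 to 8.81 (2 erythroid genes) and 10.07 to 10.29 (4 stromal genes). The count of markers above the medians in all arrays of a group was 3 of 6 T-cell, 2 of 4 stromal and 2 of 2 erythroid genes in every group, and 2 of 4 NK-cell genes in the arrays labelled SUP-B8 against 1 of 4 in the others; their part in the results was not tested. No myeloid marker was above the medians in any array.

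Sequences before the transcription start are shown because 4 of the 6 genes had an entry in RefSeq's promoter table (GRCh38.p14) and because they differ in CpG content. CpG-rich promoters are common among the tested genes. CpG content alone does not show Polycomb binding, which was not measured. Each run is the 250 bases before the start, 5′ to 3′ on the strand of the gene, and capitals mark every CG dinucleotide.

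ZIC2, chr13:99981534-99981783, plus strand: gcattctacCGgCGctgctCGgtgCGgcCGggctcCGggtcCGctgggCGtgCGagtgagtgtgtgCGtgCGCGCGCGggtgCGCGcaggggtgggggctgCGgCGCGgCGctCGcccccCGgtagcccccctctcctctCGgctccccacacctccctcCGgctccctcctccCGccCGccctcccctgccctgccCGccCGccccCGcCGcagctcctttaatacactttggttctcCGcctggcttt
OTUD1, chr10:23438825-23439074, plus strand: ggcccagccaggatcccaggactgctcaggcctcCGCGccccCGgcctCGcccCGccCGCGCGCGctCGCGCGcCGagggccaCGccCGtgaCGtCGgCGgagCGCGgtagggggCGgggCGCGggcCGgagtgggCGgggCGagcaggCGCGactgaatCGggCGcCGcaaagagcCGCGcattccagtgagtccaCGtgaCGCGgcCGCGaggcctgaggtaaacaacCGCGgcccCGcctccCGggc
CREBRF, chr5:173056102-173056351, plus strand: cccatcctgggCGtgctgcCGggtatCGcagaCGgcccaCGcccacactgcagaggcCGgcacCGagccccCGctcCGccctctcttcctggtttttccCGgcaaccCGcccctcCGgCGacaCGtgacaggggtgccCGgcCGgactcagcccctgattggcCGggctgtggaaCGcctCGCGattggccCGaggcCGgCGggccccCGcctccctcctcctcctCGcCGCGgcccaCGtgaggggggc
SAMSN1, chr21:14658847-14659096, minus strand: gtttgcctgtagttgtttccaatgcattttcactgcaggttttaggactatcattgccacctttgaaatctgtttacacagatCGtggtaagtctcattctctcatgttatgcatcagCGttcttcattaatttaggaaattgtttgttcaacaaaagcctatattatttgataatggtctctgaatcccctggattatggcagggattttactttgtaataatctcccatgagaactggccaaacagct

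The run before OTUD1 held 42 CG dinucleotides, with an observed over expected ratio of 1.08 that was at or above that of 96.4% of the 35116 promoters in the table. ZIC2 (31 CG, ratio 0.895) and CREBRF (28 CG, ratio 0.813) were also CpG-rich, against a median ratio of 0.558 over all promoters and of 0.805 over the 10569 tested genes with an entry. By that measure ZIC2 stood at 81.1% and CREBRF at 71.2% of all promoters. The most upstream of 4 starts listed for SAMSN1 held 2 CG, a ratio of 0.227, at or above that of 25.7% of promoters. Its other starts held 0, 7 and 0, and the start with 7 had a ratio of 0.718. The 4 genes thus include both CpG-rich and CpG-poor runs. The E-box CACGTG, searched on both strands, occurred in the runs of CREBRF (2 sites) and OTUD1 (1 site) and in 6.345% of all promoters. The GC box GGGCGG, also on both strands, was found 2, 3 and 4 times before CREBRF, OTUD1 and ZIC2 and in 42.6% of all promoters. No run shown held the cyclic AMP response element TGACGTCA, the octamer ATGCAAAT or TATAAA, which 1.646%, 1.632% and 10.7% of promoters held. These motifs were chosen after the sequences had been seen, and a match is a description of letters only.

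**Figure D1:**
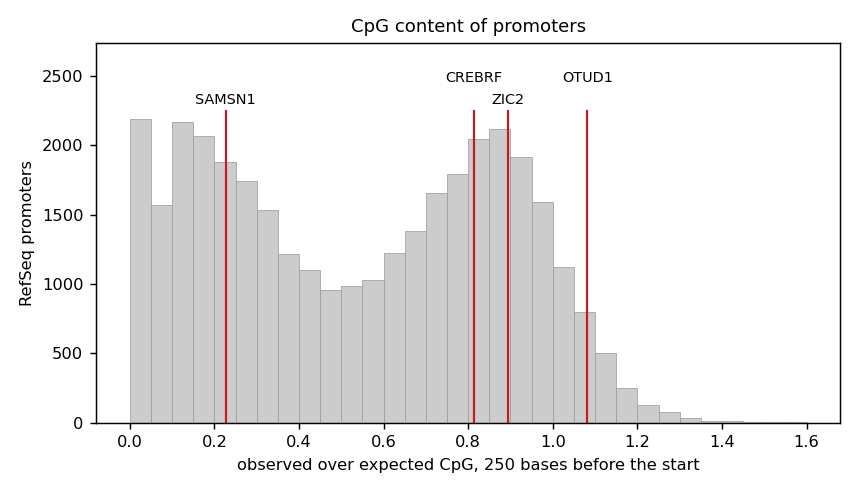
Histogram of the observed over expected CpG ratio in the 250 bases before the start for 35116 RefSeq promoters (x axis, ratio; y axis, number of promoters), with red lines for the 4 genes that have an entry. SAMSN1 lies at 0.227 in the CpG-poor mode, and CREBRF, ZIC2 and OTUD1 lie at 0.813 to 1.08 in the CpG-rich mode.

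MS4A1 was bright in the arrays labelled NALM-6 and low in those labelled SUP-B8, and GSK126 moved each towards the other. On the representative probe set, 210356_x_at, the DMSO arrays labelled SUP-B8 read 8.10 and 7.96 and the GSK126 arrays 9.13 and 9.08. For the arrays labelled NALM-6 the DMSO values were 13.33 and 13.34 and the GSK126 values 12.37 and 12.40. The treatments did not overlap in either label, and the SDs of the 4 groups were 0.01 to 0.10 (n = 2 each). The log2 difference was 1.07 ± 0.06 (SE) in the arrays labelled SUP-B8, a 2.11-fold higher signal, and -0.95 ± 0.06 (SE) in those labelled NALM-6, which left 51.6% of the DMSO signal. All 4 probe sets of MS4A1 showed both directions without overlap of arrays, with differences of 0.73 to 1.34 in the former and -1.23 to -0.78 in the latter. Probe sets ending in x_at can share probes with other transcripts, and here the 2 others, 228592_at and 228599_at, moved the same way; 228599_at lay below the array medians in every array labelled SUP-B8.

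SAMSN1 differed most between the labels. Its representative probe set 220330_s_at read 4.32 and 4.22 under DMSO and 4.99 and 5.04 under GSK126 in the arrays labelled SUP-B8, all far below the array medians. The arrays labelled NALM-6 read 12.59 and 12.58 under DMSO and 11.31 and 11.34 under GSK126. The fall in the latter was 1.26 on the log2 scale (difference -1.26 ± 0.05, SE). The difference in the former, 0.75 ± 0.05 (SE), lies between levels not shown to be above background, so it gives no size of change. The second probe set, 1555638_a_at, overlapped between treatments in the arrays labelled SUP-B8 (0.34) and fell by 1.78 in those labelled NALM-6, and the third, 1569599_at, lay below the array medians in all 8 arrays.

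TOX had differences close in size to those of MS4A1. The probe set 204529_s_at read 7.63 and 7.53 under DMSO and 8.64 and 8.60 under GSK126 in the arrays labelled SUP-B8. The arrays labelled NALM-6 read 12.51 and 12.49 under DMSO and 11.77 and 11.79 under GSK126. Neither pair of groups overlapped, and the differences were 1.04 ± 0.05 and -0.73 ± 0.05 (SE), or 2.05-fold and 60.5% of the DMSO signal. The other probe set, 204530_s_at, fell in the arrays labelled NALM-6 as well (-0.84), but it lay below the array medians in all arrays labelled SUP-B8 and differed there by -0.10 with overlapping arrays. The higher signal of TOX with GSK126 was thus seen on 1 of its 2 probe sets.

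ZIC2, the other transcription factor, is measured by a single probe set, 223642_at. It read 6.95 and 6.77 under DMSO, below the array medians, and 7.58 and 7.73 under GSK126 in the arrays labelled SUP-B8. In those labelled NALM-6 it read 10.49 and 10.43 and then 9.80 and 9.83. The differences were 0.79 ± 0.08 (SE), of which at least 0.45 lies above the array medians, and -0.64 ± 0.08 (SE), the smallest fall of the 6 genes.

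OTUD1 read 8.01 and 7.91 under DMSO and 8.69 and 8.79 under GSK126 in the arrays labelled SUP-B8 on probe set 226140_s_at. Those labelled NALM-6 read 11.34 and 11.49, then 10.40 and 10.27 with GSK126. The differences were 0.78 ± 0.08 and -1.08 ± 0.08 (SE). The dimmer probe set 231035_s_at went the same ways without overlap (0.26 and -1.01), although below the array medians in all arrays labelled SUP-B8. The third, 238998_x_at, was below the medians in all 8 arrays and lower with GSK126 in both labels (-0.22 and -0.15).

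CREBRF had the largest fall of the 6 genes on their representative probe sets. On 225956_at the arrays labelled SUP-B8 read 6.89 and 6.74 under DMSO, below the medians, and 7.34 and 7.29 under GSK126, just above them. The arrays labelled NALM-6 read 9.98 and 10.08 under DMSO and 8.47 and 8.49 under GSK126. The fall of 1.55 on the log2 scale (difference -1.55 ± 0.06, SE) left 34.2% of the DMSO signal and was shared by all 5 probe sets, at -1.65 to -1.41. The difference in the arrays labelled SUP-B8 was 0.50 ± 0.06 (SE), of which at least 0.11 lies above the medians. There the other 4 probe sets gave -0.13, 0.06, 0.09 and 0.39, and 2 of the 5 were higher without overlap. Of those 4, 225957_at, 235556_at and 238476_at lay below the medians in every array labelled SUP-B8. They show neither a rise nor its absence. The last, 1554229_at (-0.13), had 1 such array above its median.

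Over all 18 probe sets, a lower value in the arrays labelled NALM-6 was measured on each, and a higher one in those labelled SUP-B8 on some. All 18 were lower with GSK126 without overlap in the former, against 32.5% of genes, although 1 of SAMSN1 and 1 of OTUD1 lay below the medians in all arrays, and 11 were higher without overlap in the latter, against 19.5% of genes, and the same 11 showed both; since the responses chose the genes, nothing is read from these counts. Of the 12 that did not choose the genes, 5 showed both, 3 of them for MS4A1 and 1 each for OTUD1 and CREBRF. In 10 of the 18, every array labelled SUP-B8 lay below the array medians, so these show neither a rise nor its absence. Of the 5, 228599_at (MS4A1), 231035_s_at (OTUD1) and 238476_at (CREBRF) are among these 10. No second probe set of OTUD1 or CREBRF thus shows a rise above the medians. Probe sets of 1 gene share its RNA, so these counts are not replicates. When the probe sets of a gene were averaged, the difference in the arrays labelled SUP-B8 stayed at 1.05 for MS4A1 and shrank to 0.47 for TOX, 0.32 for SAMSN1, 0.28 for OTUD1 and 0.18 for CREBRF.

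**Figure D2:**
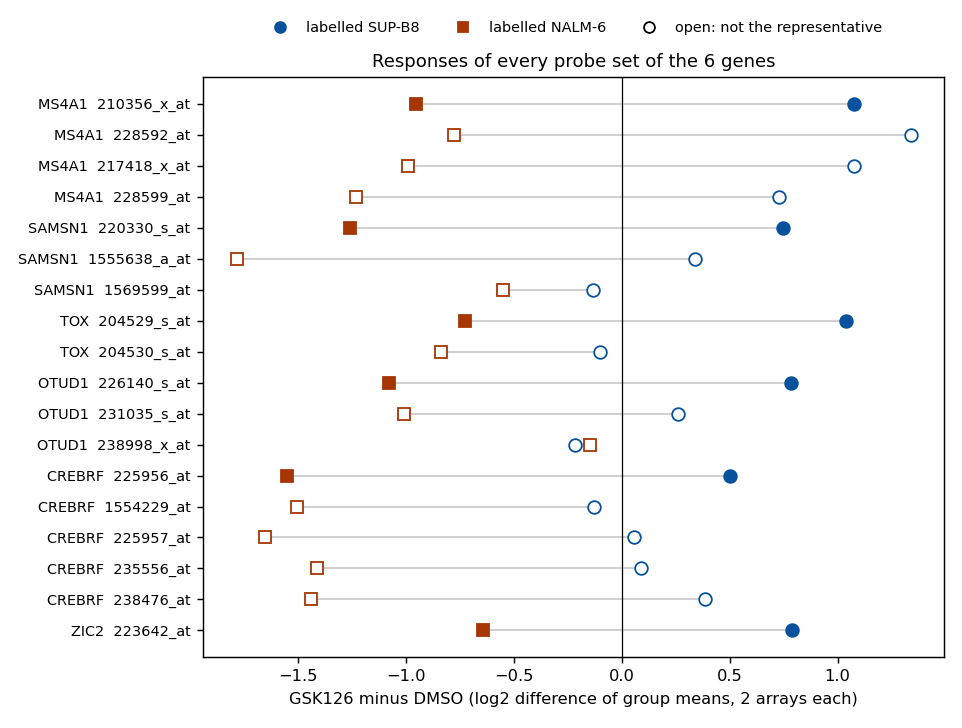
GSK126 minus DMSO as log2 differences of group means of 2 arrays (x axis) for each of the 18 probe sets (y axis), circles for arrays labelled SUP-B8 and squares for NALM-6, filled for the representative probe set. All squares lie below 0, and the circles of SAMSN1, TOX, OTUD1 and CREBRF spread from the representative value down to between -0.22 and -0.10.

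Among genes, the pattern was uncommon, as the choice of the 6 implies. In limma's fit over all genes, 2.25% of the 13161 were called in the arrays labelled SUP-B8 and 39.3% in those labelled NALM-6, and the difference of responses was called in 25.4%. By direction, 1.91% were called higher with GSK126 in the arrays labelled SUP-B8 and 18.5% lower in those labelled NALM-6 at an adjusted p under 0.05, and 0.334% and 20.8% went the other way. Both held for 46 genes (0.35%), against 11 (0.0836%) with the opposite signs, 123 higher in both (0.935%) and 13 lower in both (0.0988%). Arrays that did not overlap between treatments, higher in the former and lower in the latter, were found in 4.98% of genes. Beside the 6, the 10 genes of the 46 with the largest measured differences included RGS1, a brake on G-protein signalling, which was lower by 2.08 in the arrays labelled NALM-6 and went from 5.77, below the medians, to 8.03 in those labelled SUP-B8, a rise of at least 0.83. The inhibitor of differentiation ID2 gave 0.56 and -0.63, the B-cell transcription factor SPIB 0.53 and -0.56, and RGS2 0.50 and -1.25, all between levels above the medians. KDM4B, a demethylase gene (0.48 and -0.57), CORO2B (0.47 and -0.99) and the ubiquitin ligase CBLB (0.46 and -0.50) followed. The rise of IFNLR1 was at least 0.23, and 1 of the 2 differences lay between levels below the medians for TMEM52B (arrays labelled SUP-B8) and CLEC11A (arrays labelled NALM-6), so neither has a size there. Of these 10, RGS1 and ID2 kept both calls whichever array was left out.

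The edge of the rule lay at small differences. Just inside, with the larger of their 2 adjusted p at 0.0485 to 0.0497, were TMSB15B-AS1 (-0.44 in the arrays labelled NALM-6, no size in the others), ASB13 (0.35 and -0.54) and PLEKHF2 (0.27 and -1.02). Just outside, at 0.0502 to 0.0505, were MYBL1 (0.32 and -0.80), AKAP5 (-0.93 in the arrays labelled NALM-6, no size in the others) and PDE4D (0.35 and -0.16).

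**Figure D3:**
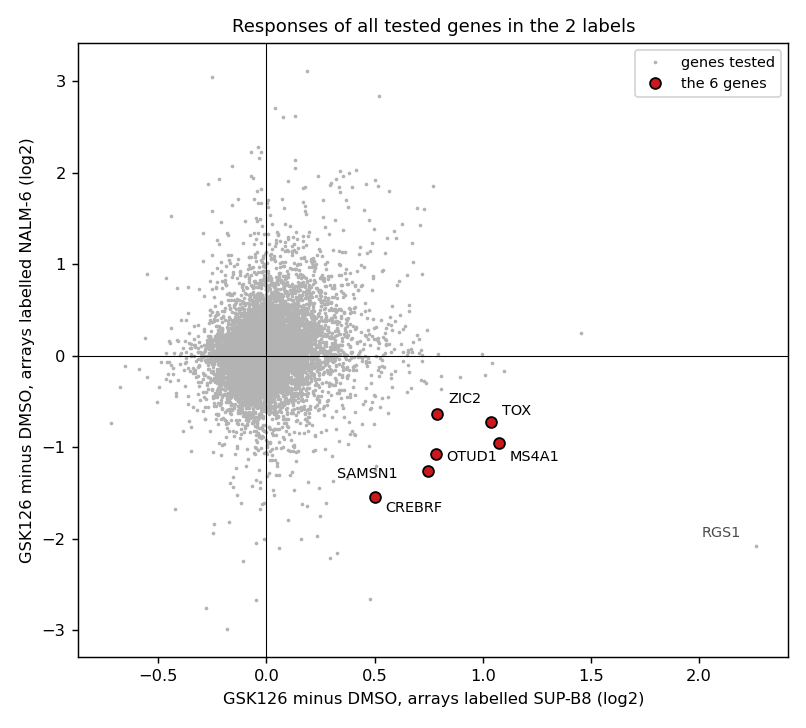
GSK126 minus DMSO in the arrays labelled SUP-B8 (x axis) and NALM-6 (y axis), in log2 units from limma, for the 13161 genes tested (grey) and the 6 genes (red). The 6 lie in the lower right at 0.50 to 1.07 and -1.55 to -0.64, as measured, with the rises of SAMSN1, CREBRF and ZIC2 starting below the array medians.

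The difference between the labels, averaged over both treatments, was not used to choose the genes and was tested. In this balanced design its error of estimation is uncorrelated with those of both responses. Across genes it is not independent of the rule. Of the 46 genes that met the rule, 35 were called lower in the arrays labelled SUP-B8, against 34.4% of all genes. The tests below are therefore no independent evidence about the choice. All 6 were lower in the arrays labelled SUP-B8, and no array of one label overlapped the other. By limma, MS4A1 differed by -4.29 ± 0.04 (SE, adjusted p = 1.94e-11), TOX by -4.04 ± 0.04 (adjusted p = 1.65e-11) and OTUD1 by -2.52 ± 0.05 (adjusted p = 9.65e-10), with all arrays above their medians. The SUP-B8-labelled DMSO arrays of ZIC2 and CREBRF were below the medians; the measured differences were -2.88 ± 0.05 (SE, adjusted p = 5.22e-10) and -2.19 ± 0.05 (SE, adjusted p = 9.09e-10), and the shown sizes at least 2.71 and 1.9955. SAMSN1 passed the filter on dim probe sets only through the arrays labelled NALM-6, where it is high, so it had to differ; with no filter its limma adjusted p was 5.81e-12, and its size is at least 4.76. The labels differed widely in general: 73.3% of genes were called between them, with SUP-B8 above NALM-6 in 38.9% and below it in 34.4%, so the call itself is common. Arrays of the 2 labels were lower in SUP-B8 without overlap in 29.1% of genes. A call with a measured level at least 2 log2 units lower in the arrays labelled SUP-B8 was found in 3.66% of genes. Under DMSO alone, the arrays labelled NALM-6 are shown to be higher by at least 5.38 (SAMSN1), 3.26 (ZIC2) and 2.82 (CREBRF). These calls held in every alternative in which the gene was tested. With the probe sets of a gene averaged, the difference was -4.05 for SAMSN1 and -1.48 for OTUD1.

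Set side by side, the levels under the 2 treatments show how far the labels approached each other, which the choice of genes fixes in direction. The log2 difference, SUP-B8-labelled minus NALM-6-labelled, was -5.31 under DMSO and -3.28 under GSK126 for MS4A1, -8.31 and -6.31 for SAMSN1, and -4.92 and -3.16 for TOX. It was -3.60 and -2.17 for ZIC2, -3.45 and -1.59 for OTUD1, and -3.21 and -1.17 for CREBRF. For groups below the medians these are measured values, and the shown size is the bound given above or, for SAMSN1 under GSK126, at least 4.13. On the linear scale, for the genes above the medians in all arrays, the signal gained in the arrays labelled SUP-B8 amounted to 5.41% (MS4A1), 5.76% (TOX) and 13.9% (OTUD1) of the GSK126 level in the arrays labelled NALM-6.

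Calls with GSK126 in the arrays labelled SUP-B8 were more frequent among genes that differed between the labels, on either side, than among the 10726 within 1 log2 unit, of which 0.895% were called higher there. The bins use measured differences, whose low sides can lie below the medians. Of 61 genes at least 5 units higher in the arrays labelled NALM-6, 5 (8.20%) were called higher and 2 lower, with a median of -0.00. Of 174 genes 3 to 5 units higher, 12 (6.90%) were called higher and 5 lower, with a median of 0.05, and of 999 genes 1 to 3 units higher, 57 (5.71%) and 6, with a median of 0.01. These 3 bins held 1, 2 and 3 of the 6 genes and 2, 5 and 23 of the 46. In the arrays labelled NALM-6, 23.0%, 35.6% and 34.9% of the 3 bins were called lower, against 17.4% within 1 unit. On the opposite side, of 174 genes 3 to 5 units higher in the arrays labelled SUP-B8, 19 (10.9%) were called higher and 1 lower there. Among all genes 35 of the 46 with the opposite responses were called lower in the arrays labelled SUP-B8 and 10 higher, with a median difference of -1.42. The part of a mixture of cells or RNA in the responses was not tested beyond these values, and fewer cells of a type and less RNA per cell cannot be told apart in such samples.

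**Figure D4:**
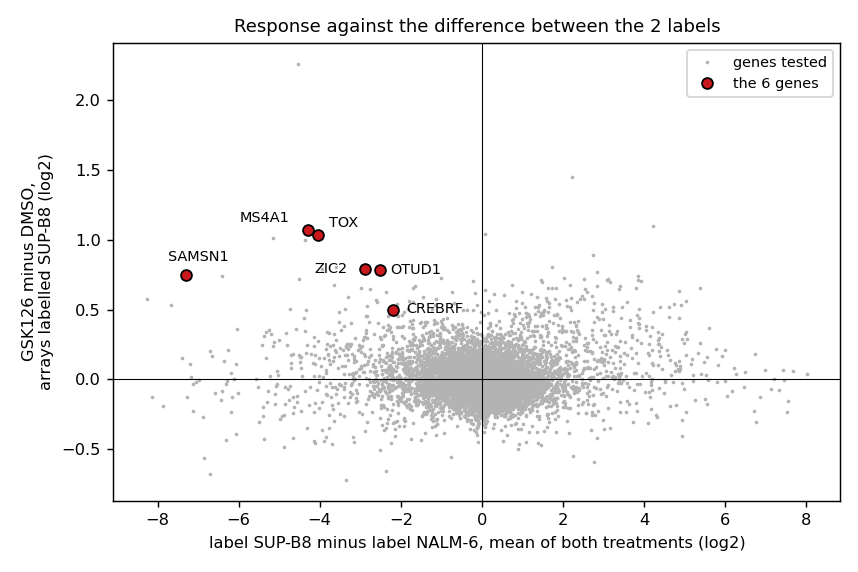
Response to GSK126 in the arrays labelled SUP-B8 (y axis, log2) against the difference between the labels averaged over both treatments (x axis, log2, SUP-B8 minus NALM-6) for the genes tested (grey) and the 6 genes (red). As measured, the 6 lie at -7.31 to -2.19 on the x axis and 0.50 to 1.07 on the y axis, while the 61 grey and red genes left of -5 centre on a response of -0.00.

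Genes that followed the members most closely were sought over the 8 arrays after the mean of each label had been taken off, so that only the response and the scatter within a label count. Since each gene then has only the response in 2 labels to show, correlations are high by construction and are given as a description. RGS1 was the closest to MS4A1 (r = 0.998, n = 8 arrays), followed by LHFPL6 (0.996) and the decapping enzyme gene DCP2 (0.992), whose differences were as small as 0.08 and -0.07. LHFPL6 (0.992) and RGS1 (0.989) also led for TOX, with TMEM38B (0.984), and RGS1 (0.992), EVL (0.990) and NUMA1 (0.987) led for ZIC2. For SAMSN1 they were STAU2 (0.993), TACC1 (0.992) and the glucosylceramide synthase gene UGCG (0.992). For OTUD1 they were the lysophosphatidic acid receptor LPAR6 (0.994), ID2 (0.991) and the transcription factor RUNX3 (0.989). For CREBRF they were PCNX4 (0.997), HBP1 (0.997) and the phosphatase DUSP10 (0.996), the last at 0.37 and -1.34. With probe sets averaged, r fell to 0.731 for DCP2, 0.722 for NUMA1 and 0.346 for LPAR6.

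No tested relative of the 6 genes by family was called by limma in the arrays labelled SUP-B8, against 2.25% of all genes. This held in all 5 families with tested genes. An unadjusted p under 0.05 was found there for 1 of 4 relatives of MS4A1, 1 of 3 of TOX and 0 of 2 of SAMSN1. For OTUD1 it was 0 of 11, and for CREBRF 2 of 11. Counts of an unadjusted p, here and below, have no share over all genes beside them. They show neither an excess nor a lack. The same 2.25% stands beside each list below without a call in these arrays. In the family of CD20, 12 other genes were on the array, 4 passed the filter, and MS4A7 alone was called, lower in the arrays labelled NALM-6 (-0.20 ± 0.05, SE, limma adjusted p = 0.0184). That call was lost without NALM-6-labelled DMSO replicate 2 (0.0866) or either NALM-6-labelled GSK126 array (0.0814 and 0.0817). MS4A4A, MS4A6A and TMEM176A differed by -0.25 to 0.18. In the TOX family, TOX2 went against TOX in the arrays labelled NALM-6, at 1.84 ± 0.09 (SE, adjusted p = 3.82e-06), with means of 8.68 under DMSO and 10.52 under GSK126, and stayed below the array medians in those labelled SUP-B8. TOX4 gave -0.19 in the arrays labelled NALM-6 (adjusted p = 0.0246), a call lost without NALM-6-labelled DMSO replicate 2 (0.108) or either GSK126 array of that label (0.118 and 0.0820), and TOX3 was not called. ZIC1, ZIC4 and ZIC5 were below the medians in all arrays, and none was tested. Of the relatives of SAMSN1, SASH3, an adaptor of lymphocytes, rose by 0.47 in the arrays labelled NALM-6 (adjusted p = 4.13e-04) and SASH1 was not called.

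Deubiquitinases of the OTU family fell with OTUD1 in the arrays labelled NALM-6 in 5 of 11 tested, with 0 higher and a median of -0.08, against 18.5% lower, 20.8% higher and a median of 0.02 over all genes; such counts describe the list, which was not tested as a group. OTULIN, which trims linear ubiquitin chains in NF-kB signalling, fell by 1.06 (SE 0.05, limma adjusted p = 2.66e-06), TNFAIP3, the NF-kB brake A20, by 0.65 and ZRANB1 by 0.61. VCPIP1 was lower by 0.38 on its representative probe set and not called, at 0.05, with its probe sets averaged. The same 11 in the arrays labelled SUP-B8 had 0 calls and 0 with an unadjusted p under 0.05. Of 15 Hippo, NF-kB and related genes linked to OTUD1, 9 fell and 2 rose in the arrays labelled NALM-6, with a median of -0.20. The inhibitor and target of NF-kB NFKBIE fell by 2.24 and the subunit REL by 0.92, while STK3 (0.73) and MAVS (0.60) rose. None of the 15 was called in the arrays labelled SUP-B8, where 3 had an unadjusted p under 0.05.

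Of 11 relatives and partners of CREBRF in the CREB3 and ATF6 family, 4 rose and 1 fell in the arrays labelled NALM-6, with a median of 0.02. CREB3L2 rose by 1.51 ± 0.05 (SE, limma adjusted p = 1.16e-06), XBP1 by 0.67 and CREB3 itself by 0.39, and CREBZF fell by 0.51. Across the alternative settings the rises of CREB3L2 and XBP1 were as small as 0.51 and 0.32. Genes of the unfolded protein and integrated stress responses rose in 10 of 17 there and fell in 1, with a median of 0.20, against 20.8% and 18.5% of all genes. The stress sensor ERN1 rose by 1.68, the chaperone SDF2L1 by 1.41, CHAC1 by 1.34 and the chaperone HSP90B1 by 1.34. No gene of these lists was called in the arrays labelled SUP-B8, where 2 of 11 and 4 of 17 had an unadjusted p under 0.05. Of 8 genes of the glucocorticoid receptor and its targets, the leucine-zipper factor TSC22D3 was called higher in both labels (0.38 and 1.63) and the phosphatase DUSP1 fell by 1.79 in the arrays labelled NALM-6, where 3 were higher and 4 lower. KLF9 (0.49) was among the 3 and TXNIP (-0.44) among the 4. Across the alternative settings, the smallest differences in the arrays labelled NALM-6 were 0.81 for TSC22D3 and -0.66 for DUSP1. The call of TSC22D3 in the arrays labelled SUP-B8 was lost without any of the 4 arrays of that label, at adjusted p of 0.0766 to 0.155.

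Around MS4A1, the B-cell surface molecules beside CD20 fell in 13 of 27 and rose in 4 in the arrays labelled NALM-6, with a median of -0.19, against 18.5% and 20.8% over all genes. The Fc receptor-like genes FCRL1 (-1.003 ± 0.19, SE, limma adjusted p = 0.00369) and FCRL2 (-0.86) and the inhibitory coreceptor CD22 (-0.57) fell, and the inhibitory Fc receptor FCGR2B rose from below the medians by at least 0.55. None of the 27 was called by limma in the arrays labelled SUP-B8, against 2.25% of all genes. There 11 had an unadjusted p under 0.05, a count with no share over all genes beside it. The median was 0.06 against -0.02 over all genes. Averaged over treatments, 23 of the 27 were lower in the arrays labelled SUP-B8 and 4 higher, with a median of -1.70, against 34.4% and 38.9% of all genes. Of 15 transcription factors linked to MS4A1, SPIB (0.53) and IKZF3 (0.46) were the 2 called higher in the arrays labelled SUP-B8, against 1.91% of all genes. In those labelled NALM-6, 5 were higher and 5 lower. SPIB was the factor called in opposite directions, at 9.26 under DMSO and 9.79 under GSK126 in the arrays labelled SUP-B8 and at 12.63 and 12.07 in the others. IKZF3 was called higher in both labels, and POU2F2 (0.51) and IRF4 (0.49) rose in the arrays labelled NALM-6. Without SUP-B8-labelled GSK126 replicate 1 the calls of SPIB and IKZF3 in that label were lost (adjusted p = 0.0660 and 0.0849), that of IKZF3 also without DMSO replicate 2 (0.0603), and that of SPIB also with probe sets averaged (0.20, adjusted p = 0.0606). In the arrays labelled NALM-6, IKZF3 lost its call without either DMSO array (0.0867 and 0.0660) or GSK126 replicate 2 (0.152), with arrays centred (0.0569) and with probe sets averaged (0.701).

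A list of regulators of B-cell receptor signalling and linked genes, negative or not, included SAMSN1 and 22 others tested. Of these 22, 10 fell and 4 rose in the arrays labelled NALM-6, against 18.5% and 20.8% of all genes. The phosphatase PTPN6 fell by 0.61 and the adaptor SLA rose by 1.0012. CBLB was the 1 called in opposite directions, at 0.46 and -0.50. Its call in the arrays labelled SUP-B8 was lost without DMSO replicate 2 (difference 0.40) or either GSK126 array (0.47 and 0.45) of that label. With probe sets averaged it was lost too (0.25, limma adjusted p = 0.0785). PTPRC, which encodes CD45, lay below the medians in the arrays labelled SUP-B8, was higher in those labelled NALM-6 by at least 5.45, and was not called with GSK126 in either label (limma adjusted p = 0.0582 and 0.759). Among 13 lymphocyte regulators linked to TOX, 2 were called higher in the arrays labelled SUP-B8, against 1.91% of all genes. They were ID2 and the germinal-centre repressor BCL6 (0.34), and both fell in the arrays labelled NALM-6, where 6 fell and 1 rose. BCL6 lost its call in the arrays labelled SUP-B8 without any of the 4 arrays of that label (0.0571 to 0.117). NFATC1, a factor upstream of TOX in T cells, fell by 1.42 in the arrays labelled NALM-6, and GATA3 rose there from below the medians by at least 0.15. The smallest difference of NFATC1 there across the alternative settings was -0.70. Of 9 Hedgehog genes linked to ZIC factors, PTCH1 (0.35) and CDON were called higher in the arrays labelled NALM-6, CDON between levels below the medians that give no size, and none was called in those labelled SUP-B8, where 1 had an unadjusted p under 0.05. CDON lost its call without NALM-6-labelled DMSO replicate 2 (0.137) or either GSK126 array (0.0607 and 0.106), and PTCH1 with probe sets averaged (0.377).

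Of 11 subunits and accessory genes of PRC2, the target complex, none was called in the arrays labelled SUP-B8, against 2.25% of all genes. There 0 had an unadjusted p under 0.05. In the arrays labelled NALM-6, 5 of 11 fell by limma, with a median of -0.12, against 18.5% of all genes. They included PHF19 (-0.43), PHF1 (-0.31), AEBP2 (-0.25) and SUZ12 (-0.21, adjusted p = 0.0142), the last lost without NALM-6-labelled DMSO replicate 2 (0.0758) or either GSK126 array (0.0541 and 0.0845) and with probe sets averaged (0.172).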

How the data were processed

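The authors deposited 1 table of log2 values, with 54675 probe sets in lines and the 8 arrays in columns; the range of the values shows the unit. The submitters' processing notes name MAS5 and RMA, whose role and version, like a genome build, are not given in the sources used here. Such normalization between arrays hides a change shared by most transcripts. Of the probe sets, 41097 had 1 symbol in the platform annotation, 1801 had several and 11777 were not listed. A gene was represented by its probe set of highest mean and tested if at least 2 of 8 arrays lay above the median of all probe sets, which left 13161 of 19775 genes. Groups lying below those medians are called not shown to be above background, and a difference against them is given as at least the distance to the medians, or as a measured value that is said to be one. limma 3.58.1 in R 4.3.3 fitted 4 group means (4 residual degrees of freedom), with Benjamini-Hochberg adjustment over all genes tested and calls at an adjusted p under 0.05. An exact test of 2 arrays against 2 cannot reach that threshold. Python 3.11.15 prepared tables and promoter windows, whose orientation was checked on 1869 overlapping opposite windows.

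The members and the gene lists, 22 in all including marker lists, were chosen with earlier results of these data known. From each list the up to 4 called genes of largest difference are named, or all where 4 or fewer were tested; the 3 likest genes per member, the 10 largest under the same rule and 3 genes on either side of its edge are named too. CBLB was named under the same rule, and PTPRC after its values were seen. Alternatives changed the filter, the choice of probe set, the scaling of arrays, limma's prior or which arrays were fitted, added a replicate block, or left out each array in turn. The fit was tested on simulated data. The labels call the replicates biological; whether cultures were separate is not stated further, and p-values measure the spread between these arrays.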

Additional observations from a re-analysis of the deposited data

Results flagged for a closer look

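For 38 of 51 tested genes named from the lists, with CBLB and PTPRC and without the 6, limma called the difference between the 2 responses (SUP-B8-labelled minus NALM-6-labelled, log2) at an adjusted p under 0.05, against 25.4% of all genes tested. Genes were mostly named for a called response, which is part of this difference, so the share is a description; genes named for opposite responses or for their likeness to the 6 were not counted otherwise. Opposite calls in the 2 labels were made for SPIB (1.09), ID2 (1.19), CBLB (0.95) and BCL6 (0.80) among them, which also meet the rule that chose the 6. The difference was also positive for NFKBIE (2.13), DUSP1 (1.89), NFATC1 (1.36), FCRL1 (1.13), FCRL2 (1.09), OTULIN (0.9998), REL (0.9967), CD22 (0.72), PTPRC (0.59), ZRANB1 (0.65), TNFAIP3 (0.62), PTPN6 (0.59), PHF19 (0.46), CREBZF (0.45), VCPIP1 (0.44) and TXNIP (0.38). None of these was called in the arrays labelled SUP-B8, and all but PTPRC were called lower in those labelled NALM-6. The difference was negative for CHAC1 (-1.52), ERN1 (-1.51), TOX2 (-1.51), SDF2L1 (-1.43), HSP90B1 (-1.38), TSC22D3 (-1.25), CREB3L2 (-1.25), SLA (-1.14), XBP1 (-0.86), FCGR2B (-0.67), STK3 (-0.60), SASH3 (-0.58), MAVS (-0.56), POU2F2 (-0.55), KLF9 (-0.51), CREB3 (-0.43), IRF4 (-0.41) and TMEM176A (-0.38). All of these but TMEM176A were called higher in the arrays labelled NALM-6. Of the 38, 8 lost this call in some setting. Of 8 omissions of 1 array, the call was lost in 7 for TMEM176A, 6 each for CREB3, TXNIP and VCPIP1, 5 each for KLF9 and PTPRC and 3 for FCRL1, and other settings lost it for TMEM176A, VCPIP1, CREB3, TXNIP, PTPRC and CREBZF. Adjusted p in those settings was 0.0504 to 0.102, apart from 0.387 for VCPIP1 with probe sets averaged. For KLF9, FCRL1, FCRL2, TOX2, FCGR2B and PTPRC, 1 or more groups lay below the array medians, so their values are measured differences and not shown sizes. Outliers could not be sought in groups of 2 arrays.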

How the results depend on the processing

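The differences of the 6 genes between the labels kept direction and call in all 87 alternatives in which they were tested. With all 8 arrays required above the medians, SAMSN1, CREBRF and ZIC2 were not tested. The 4 counts of called genes were within 1.5 times the reported ones in 55 of 62 alternatives. Calls in the arrays labelled SUP-B8 numbered 296, against 160 without a filter, 777 (504 higher and 273 lower) with the trended robust prior and 191 with only those 4 arrays fitted; omitting 1 array gave 27 (without GSK126 replicate 1) to 217, with 72, 94 and 136 without GSK126 replicate 2, DMSO replicate 2 and DMSO replicate 1 of that label. Omissions gave 3749 to 5316 in the arrays labelled NALM-6 (5178 reported), 2346 to 3026 for the difference of responses (3343) and 9234 to 9672 between the labels (9644). Same-numbered replicates did not deviate together (r of -0.16 to 0.08 between groups). With groups of 2 arrays, this check cannot exclude that same-numbered cultures were matched. A fit blocked on the replicate number gave counts of 202, 4972, 3058 and 9547. Centring the arrays turned the split for the difference of responses from 1440 higher and 1903 lower to 1562 higher of 2941. Of 273 alternative values of the 6 genes' responses, 36 moved by more than the spread between replicates and 0 changed sign. These responses chose the genes. A changed filter or prior, or an array left out of the other label, cannot alter a response within a label. Nothing is therefore read from the kept signs. VCPIP1 turned to 0.0537 in the arrays labelled NALM-6 and to -0.0845 for the difference of responses with its probe sets averaged. The number of arrays limits the precision, and no detection calls were used.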
